A study of Mus musculus with 4 samples.

Results

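The genes described here encode the constitutive proteasome, the subunits that most cells use to degrade proteins tagged with ubiquitin. They were chosen by name: every gene called Psma, Psmb, Psmc or Psmd followed by a number alone, without the immunoproteasome subunits Psmb8, Psmb9 and Psmb10. This rule finds 36 of the 54752 genes in the tables, 16 of the core particle (Psma and Psmb) and 20 of the regulatory particle (Psmc and Psmd). Total RNA was sequenced from the epidermis of 4 C57BL/6 mouse pups at postnatal day 0, 2 of them Skiv2l ctl and 2 of genotype Skiv2l fl/fl K14-Cre. In the knockout pups a Cre recombinase under the keratin 14 promoter deletes floxed Skiv2l, the helicase of the cytoplasmic RNA exosome, in keratinocytes, so other cells of the sheet keep the gene. These groups are called knockouts and controls here. The name Skiv2l ctl covers pups with 1 or 2 floxed alleles and no Cre as well as Cre carriers with 1 floxed allele (Skiv2l fl/+ K14-Cre). Which of these each control was is not given, so a control may carry the Cre.

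The core particle is a barrel of stacked rings. The outer rings are built from alpha subunits (Psma), which guard the entrance, and the inner rings from beta subunits (Psmb), 3 of which, Psmb5, Psmb6 and Psmb7, cut proteins. The regulatory particle sits on the end of the barrel. Its base holds a ring of ATPases (Psmc) that unfold the substrate, and its lid holds the enzyme that removes ubiquitin. Cells build both particles with dedicated chaperones, and the transcription factor Nfe2l1 is known to raise the transcripts of most subunits when proteasome activity falls short. In skin, variants of the proteasome maturation factor POMP cause a disorder of keratinization.

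Promoter windows are shown for the 3 subunits whose transcripts passed the test between genotypes, Psmb5, Psmd5 and Psmd8, and for Psmb6, a catalytic partner of Psmb5 that did not pass it. Each window runs from 250 bases before to 50 bases after the annotated start, on the strand of the gene, from RefSeq on GRCm38.p6. Capitals mark the core of the antioxidant response element that Nfe2l1 and Nfe2l2 bind, searched as TGACNNNGC on both strands. Its first letters are shared with the half-site of the cyclic AMP response element. The windows lie at chr14:54617946-54618245 (minus strand), chr11:70525107-70525406 (plus), chr2:34870913-34871212 (minus) and chr7:29180624-29180923 (minus).
Psmb5: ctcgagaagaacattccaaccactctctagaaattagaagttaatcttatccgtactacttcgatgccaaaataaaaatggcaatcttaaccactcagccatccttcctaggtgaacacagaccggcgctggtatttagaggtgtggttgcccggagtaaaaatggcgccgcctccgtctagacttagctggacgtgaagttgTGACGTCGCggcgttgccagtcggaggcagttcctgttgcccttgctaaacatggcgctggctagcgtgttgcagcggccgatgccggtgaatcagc
Psmb6: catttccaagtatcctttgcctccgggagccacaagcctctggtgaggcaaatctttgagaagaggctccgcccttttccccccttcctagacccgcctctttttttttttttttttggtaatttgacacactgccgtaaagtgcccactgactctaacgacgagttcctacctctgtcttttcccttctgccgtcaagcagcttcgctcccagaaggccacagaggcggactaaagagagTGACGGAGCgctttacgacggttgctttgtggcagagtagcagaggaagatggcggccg
Psmd5: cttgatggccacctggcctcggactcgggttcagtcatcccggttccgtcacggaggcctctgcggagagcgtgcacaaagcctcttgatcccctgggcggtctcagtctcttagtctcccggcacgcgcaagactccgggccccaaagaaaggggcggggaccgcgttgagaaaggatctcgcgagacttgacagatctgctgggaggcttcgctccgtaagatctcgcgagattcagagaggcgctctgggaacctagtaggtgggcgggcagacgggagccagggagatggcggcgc
Psmd8: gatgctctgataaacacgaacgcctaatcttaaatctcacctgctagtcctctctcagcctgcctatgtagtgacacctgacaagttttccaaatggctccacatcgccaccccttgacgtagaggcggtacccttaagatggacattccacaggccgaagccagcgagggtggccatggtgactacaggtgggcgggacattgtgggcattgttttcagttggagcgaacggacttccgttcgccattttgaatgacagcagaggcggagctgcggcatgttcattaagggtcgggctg

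A window was found in RefSeq for 29 of the 36 subunit genes, and 5 of these (17.2%) held the element, against 3781 of all 27025 genes with a window (13.99%). The 5 genes were Psmb5, Psmb6, Psmc6, Psmd9 and Psmd12. The element started 47 bases before the annotated start of Psmb5 and 9 bases before that of Psmb6. The windows of Psmd5 and Psmd8 did not contain these letters. Psma8, Psmb1, Psmb2, Psmb7, Psmc3, Psmd3 and Psmd7 were not matched.

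The libraries were of similar depth, with a ratio of coverage to FPKM, equal to aligned gigabases under the usual definition, of 5.84 to 6.27. FPKM, a level that takes transcript length and library size into account, was above 0.5 for 17384 to 17761 genes in 3 libraries and for 16138 in the second knockout. Skiv2l itself measured 19.3 and 19.1 FPKM in controls and 10.8 and 8.55 in knockouts (log2 fold change -0.92, adjusted p = 0.00368, limma), and its adjusted p was 0.0562 and 0.0547 without the first or the second control. The 8 keratinocyte markers summed to 30850 and 32010 FPKM in controls against 27870 and 30820 in knockouts, with Krt14 higher and Krt1 and Lor lower among them. Markers of other cells were low beside these and moved in several lists. The 6 fibroblast markers summed to 61.3 and 69.0 FPKM in controls and 21.9 and 25.0 in knockouts. Most of this was Dcn, at 57.0 and 62.7 against 16.9 and 21.4. Of the rest, Col1a2 was also lower (adjusted p = 0.0332, limma), Col1a1 and Col3a1 overlapped between genotypes, and Lum was near 0. Pdgfra went the other way, at 0.299 and 0.25 FPKM in controls and 0.789 and 0.668 in knockouts (adjusted p = 0.0601). Over all tested genes 25.4% were called lower, and both knockouts were above both controls for 18.2%. The 6 leukocyte markers summed to 19.5 and 27.8 against 11.2 and 10.5, and the 5 erythroid markers to 134 and 125 against 62.0 and 80.7. The 5 melanocyte markers summed to 47.5 and 54.4 against 50.6 and 63.5, and the endothelial and muscle lists to under 1 in every library. Of the leukocyte markers, Cd207 was near 0 in every library (0.0401 and 0.0417 FPKM in controls and listed at 0 in both knockouts). The part of these cells in the results below was not tested. In whole epidermis, fewer cells of a type and less RNA per cell cannot be told apart.

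Proteasome transcripts were abundant in newborn epidermis, and in FPKM as deposited their total was close to the same in both genotypes. The 36 genes together summed to 1340 and 1415 FPKM in Skiv2l ctl against 1378 and 1311 in the knockouts. In TPM, which gives every library the same total, they reached 3725 and 3848 in controls and 3693 and 3461 in knockouts. By FPKM the groups overlapped, and by TPM both knockouts were below both controls. With the libraries scaled to the same median the subunits moved the other way, with a median log2 fold change of 0.17, so the comparison of totals depends on the scaling. The core particle summed to 557 and 606 FPKM in controls and 595 and 566 in knockouts. The regulatory particle summed to 784 and 809 against 783 and 745. Its sum was above that of the core in every library, with a ratio of core to regulatory particle of 0.710, 0.749, 0.760 and 0.759. These sums cover unequal numbers of genes, 20 in the regulatory particle against 14 core genes above the filter. The median FPKM per subunit was higher in the core, at 38.4 and 42.1 in controls and 40.4 and 39.6 in knockouts. In the regulatory particle it was 34.7 and 37.6 in controls and 35.5 and 33.2 in knockouts.

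The subunits of one particle were not at one level, although the finished particle holds its lasting subunits in equal numbers. Among the 34 subunits above the filter, FPKM in the first control ran from 3.92 for Psmd10 to 107 for Psmd8, with a median of 36.2. The medians of the other libraries were 39.7 in the second control and 37.4 and 37.5 in the knockouts. The coefficient of variation between members was 38.2% to 42.4% in the core and 57.1% to 62.3% in the regulatory particle. The latter takes in the assembly chaperones Psmd5, Psmd9 and Psmd10. It was 53.0% to 64.2% in the lid alone and 30.5% to 36.0% in the ATPase ring alone. Psmd8, a lid subunit, had the highest mean over the 4 libraries (93.9 FPKM), followed by the lid subunit Psmd3 (78.7) and the catalytic subunit Psmb6 (70.0). The lowest subunits were the base assembly chaperones Psmd10 (3.75), Psmd9 (4.56) and Psmd5 (8.38), which leave the particle before it is complete. The lowest of the lasting subunits was Psma2, at 10.4 and 10.9 FPKM in controls and 9.70 and 9.76 in knockouts. The order of the levels was nearly the same in both genotypes (Pearson r = 0.987 and Spearman rho = 0.976 of mean log2(FPKM + 1) across 34 genes, which share the 4 libraries and are not independent replicates).

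**Figure D1:**
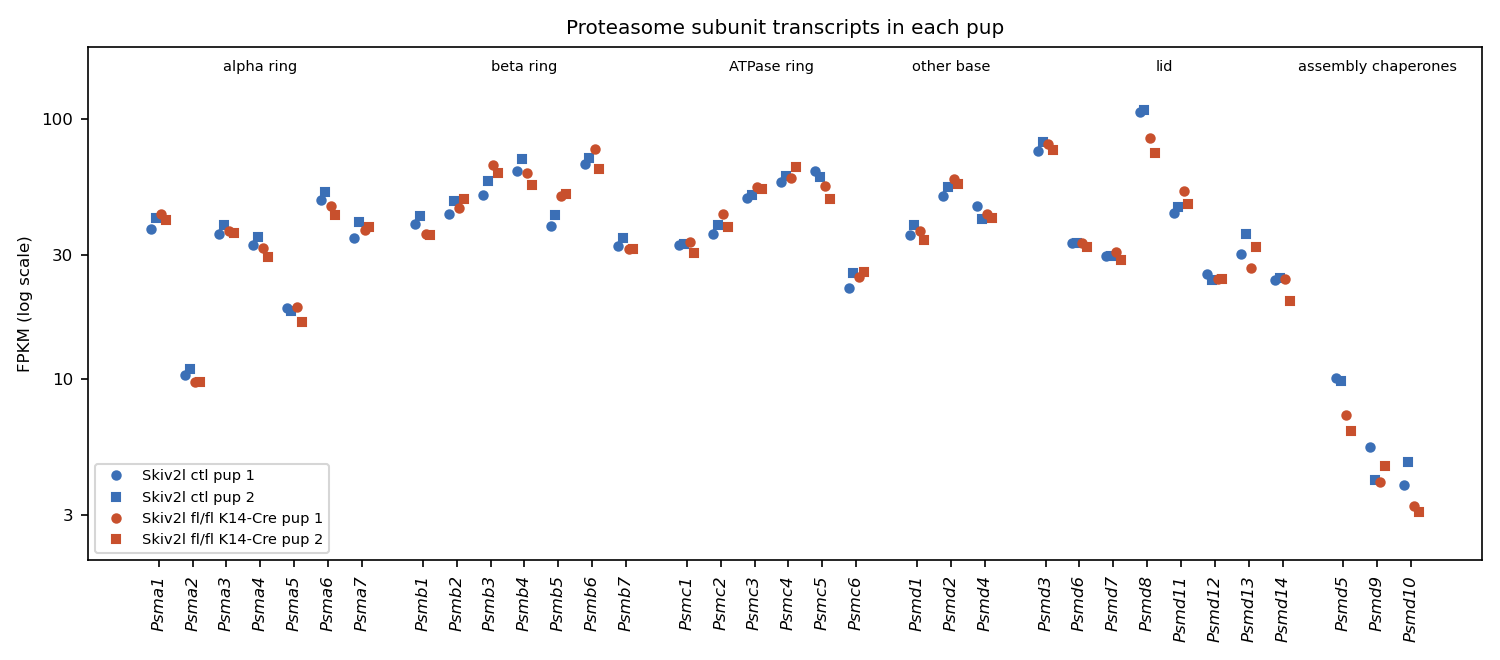
FPKM on a log axis of the 34 subunits above the filter, grouped by their place in the proteasome, with 1 point per pup (blue, Skiv2l ctl; red, Skiv2l fl/fl K14-Cre). The genotypes overlap for 19 of these genes and are apart for 15, among them Psmb5, Psmd8 and Psmd5. Both knockouts are above both controls for 5 and below them for 10, against 18.2% and 55.3% of all tested genes.

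The rule also takes in 2 subunits of special proteasomes. Psma8, the alpha subunit of the testis proteasome, was listed at 0.0930 and 0.140 FPKM in controls and at 0 in both knockouts. Psmb11, the catalytic subunit of the thymus proteasome, was 0.0927 and 0.0159 FPKM in controls and 0.0199 and 0.0654 in knockouts. Neither reached 0.5 FPKM in any library, so neither was tested.

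Most subunits showed no difference that passed the test. Of the 34 tested subunits, 1 rose (Psmb5) and 2 fell (Psmd8 and Psmd5) in Skiv2l fl/fl K14-Cre epidermis at an adjusted p under 0.05 (limma on log2(FPKM + 1), n = 2 pups per genotype, Benjamini-Hochberg over 13609 protein-coding genes). Over all tested genes 8.99% were called higher and 25.4% lower. The median log2 fold change was -0.03 over the 34 subunits, within quartiles of -0.14 and 0.07, and -0.20 over all tested genes, within quartiles of -0.42 and 0.04. A log2 difference over 0.5 in either direction was found for 1 of the 34 subunits, Psmd5, against 26.4% of all tested genes. The 95% intervals of the 34 differences, not adjusted for the number of genes, had a median width to each side of 0.22 and together ran from -0.77 to 0.53. In the test without the filter on low values, 0 of the 3 were called (adjusted p = 0.0976 for Psmb5, 0.0987 for Psmd8 and 0.0859 for Psmd5, limma), and Skiv2l was not called either (0.0706). Smaller differences than these intervals could not be resolved with 2 pups per genotype. The 2 pups of a genotype differed from each other by a median of 0.10 on the log2 scale across the subunits, in controls and in knockouts.

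**Figure D2:**
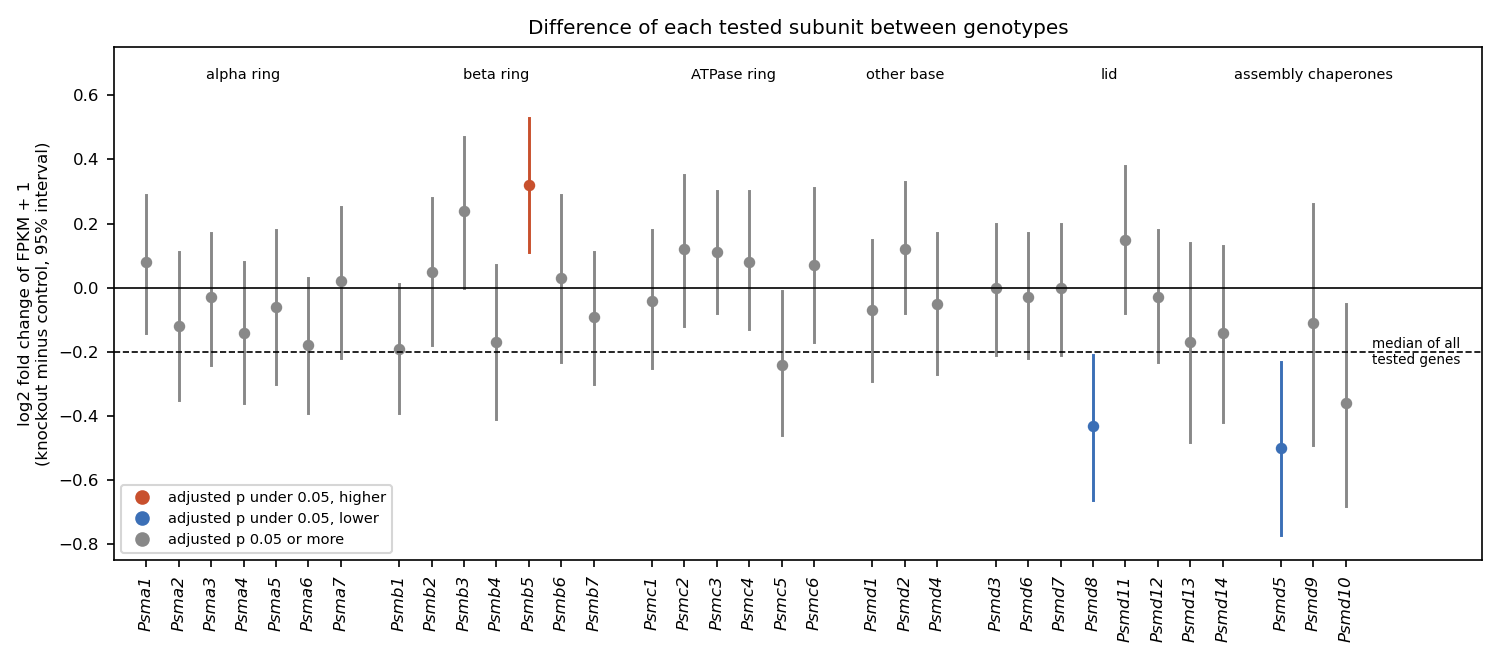
Log2 fold change of FPKM + 1 (Skiv2l fl/fl K14-Cre minus Skiv2l ctl) of each tested subunit with its unadjusted 95% interval from limma, n = 2 pups per genotype. The dashed line is the median of all tested genes, -0.20; Psmb5 (0.32) lies above 0 and Psmd8 (-0.43) and Psmd5 (-0.50) below it, and 0 is also just outside the intervals of Psmb3, Psmc5 and Psmd10, which did not pass after adjustment.

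In the core particle, 1 of 14 tested subunits was called higher and 0 lower, where 8.99% and 25.4% of all tested genes were called. At an unadjusted p under 0.05, 2 core subunits were higher and 0 lower, against 11.9% and 35.7% of all tested genes. The median log2 fold change of the core was -0.05. Psmb5, the beta subunit that cuts after hydrophobic residues and the main target of bortezomib, was the subunit that rose. It measured 38.8 and 42.7 FPKM in Skiv2l ctl against 50.6 and 51.6 in the knockouts. Both knockouts were above both controls, as for 18.2% of all tested genes. The mean FPKM was 1.25-fold higher, and the log2 fold change was 0.32 (standard error 0.09, adjusted p = 0.0341, limma). Without either control library the adjusted p was 0.187 and 0.0953, and without either knockout library 0.0593 and 0.0789, so this call needed all 4 libraries. It was also lost when the variance was modelled without a trend (adjusted p = 0.0647).

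The other catalytic subunits did not pass the test. Psmb6, which cuts after acidic residues, was 67.4 and 70.8 FPKM in controls and 77.0 and 64.6 in knockouts (log2 fold change 0.03, 95% interval -0.23 to 0.29). Psmb7, which cuts after basic residues, was 32.6 and 34.9 against 31.6 and 31.6 (-0.09, interval -0.30 to 0.11). The knockouts lay on both sides of the controls for Psmb6 and just below them for Psmb7. A ratio within a library does not depend on a common factor applied to that library, as in median scaling, though quantile normalization can change it. The FPKM of Psmb5 was 1.19 and 1.22 times that of Psmb7 in controls and 1.60 and 1.64 times in knockouts, a pair set side by side after the values were seen.

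Among the structural beta subunits, Psmb3 was 51.3 and 58.1 FPKM in controls and 66.9 and 62.3 in knockouts, with both knockouts above both controls (log2 fold change 0.24, adjusted p = 0.101, limma). Psmb4, the last subunit to join the ring, was 63.2 and 70.4 against 62.3 and 56.1, with a narrow gap between the groups (-0.17, adjusted p = 0.211). Psmb1 was 39.7 and 42.3 against 36.1 and 35.8 (-0.19, adjusted p = 0.125), and Psmb2 was 43.2 and 48.3 against 45.7 and 49.2 (0.05, adjusted p = 0.682). Of the 7 alpha subunits, 0 were called by limma, where 8.99% of all tested genes were called higher and 25.4% lower. An unadjusted p under 0.05 was also found for 0 of the 7, against 11.9% higher and 35.7% lower of all tested genes. Their log2 fold changes ran from -0.18 for Psma6 to 0.08 for Psma1. Psma6 was 48.9 and 52.4 FPKM in controls and 46.2 and 43.0 in knockouts, and both knockouts were below both controls for Psma6, Psma4 and Psma2. That order was found for 55.3% of all tested genes. Psma7, Psma3, Psma5 and Psma1 overlapped between genotypes.

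In the regulatory particle, 0 of 20 subunits were called higher and 2 lower, against 8.99% and 25.4% of all tested genes. At an unadjusted p under 0.05, 0 were higher and 4 lower, against 11.9% and 35.7% of all tested genes, and the median log2 fold change was -0.03. Psmd8, which is needed to join the lid to the base, was the most abundant subunit and fell. It measured 107 and 109 FPKM in Skiv2l ctl against 85.1 and 74.5 in the knockouts. Both knockouts were below both controls by more than the pups of a genotype differed. The mean ratio of knockout to control was 0.739, and the log2 fold change was -0.43 (standard error 0.09, adjusted p = 0.0166, limma). The adjusted p was 0.101 without the first control library, 0.113 without the second, and 0.107 with the libraries scaled to the same median. Set beside its lid partner Psmd3, whose level was 75.8 and 81.7 FPKM in controls and 80.7 and 76.5 in knockouts, Psmd8 was 1.41 and 1.34 times as high in controls and 1.05 and 0.974 times in knockouts. This pair was also chosen after the values were seen.

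The other lid subunits did not pass the test. Psmd14, the metalloprotease that cuts ubiquitin chains from the substrate, was 24.1 and 24.6 FPKM in controls and 24.2 and 19.9 in knockouts, the second knockout alone standing lower (log2 fold change -0.14, adjusted p = 0.348, limma). Psmd7, its scaffold partner, was 29.9 and 29.7 against 30.8 and 28.8, and Psmd6 was 33.4 and 33.4 against 33.5 and 32.1. Both genes lay within 95% intervals of -0.22 to 0.20. Psmd11, a lid subunit linked to high proteasome activity in stem cells, was 43.5 and 46.1 against 52.9 and 47.1, with both knockouts above both controls (0.15, adjusted p = 0.241). Psmd12 and Psmd13 had log2 fold changes of -0.03 and -0.17 and overlapped between genotypes.

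In the base, 0 of the 6 ATPases were called, where 8.99% of all tested genes were called higher and 25.4% lower. Their log2 fold changes ran from -0.24 for Psmc5 to 0.12 for Psmc2, with a median of 0.08. At an unadjusted p under 0.05, 0 were higher and 1 lower, against 11.9% and 35.7% of all tested genes. Psmc5 was 63.4 and 60.1 FPKM in controls and 55.4 and 49.2 in knockouts, with both knockouts below both controls (adjusted p = 0.0916, limma). It passed only when the first knockout library was left out (adjusted p = 0.0489). Psmc3 was 49.9 and 51.1 against 54.8 and 54.1 (0.11, adjusted p = 0.309), the reverse order. Psmc1, Psmc2, Psmc4 and Psmc6 overlapped between genotypes. The large scaffold subunits Psmd1 and Psmd2 and the ubiquitin receptor Psmd4 had log2 fold changes of -0.07, 0.12 and -0.05 and adjusted p values of 0.576, 0.285 and 0.685.

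Psmd5, Psmd9 and Psmd10 are chaperones that each hold an ATPase of the base during assembly. Psmd5, which binds Psmc2, fell. It was 10.1 and 9.86 FPKM in controls and 7.28 and 6.28 in knockouts, and the groups were well apart. The ratio of means was 0.679 and the log2 fold change -0.50 (standard error 0.11, adjusted p = 0.0178, limma). Without the first or the second control library the adjusted p was 0.136 and 0.120, and it was 0.0808 and 0.0694 with median scaling and quantile normalization. The FPKM of Psmd5 was 0.280 and 0.252 of that of Psmc2 in controls and 0.168 and 0.163 in knockouts. Psmd10, also known as gankyrin, was 3.92 and 4.79 against 3.23 and 3.07, with both knockouts below both controls (-0.36, adjusted p = 0.0744). In TPM it was called lower (-0.46, adjusted p = 0.0492), so that 1 subunit was called higher and 3 lower in that unit, against 8.48% and 30.5% of all tested genes. Psmd9 was 5.49 and 4.10 against 4.0 and 4.64, with overlapping groups (-0.11, adjusted p = 0.582).

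The direction of most subunits depended on the scaling of the libraries. As deposited, 12 of the 34 had a positive and 22 a negative log2 fold change. With each library scaled to the same median FPKM, which moved the median of all tested genes from -0.20 to -0.03, 30 were positive and 4 negative, and the subunit median was 0.17. Then 6 subunits were called higher and 0 lower, against 13.9% and 11.9% of all tested genes, and with quantile normalization 1 was called higher and 1 lower, against 12.4% and 14.1%. Over all genes the calls were 1223 higher and 3455 lower as deposited, 1894 and 1623 with median scaling and 1683 and 1917 with quantile normalization. The 6 under median scaling were Psmb5, Psmb3, Psmc2, Psmc3, Psmd2 and Psmd11. Psmb5 was called higher under every scaling, with log2 fold changes of 0.28 in TPM, 0.38 with quantile normalization and 0.53 with median scaling. Psmd8 and Psmd5 stayed below 0 under every scaling, at -0.49 and -0.58 in TPM, -0.45 and -0.33 with quantile normalization, and -0.22 and -0.31 with median scaling.

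**Figure D3:**
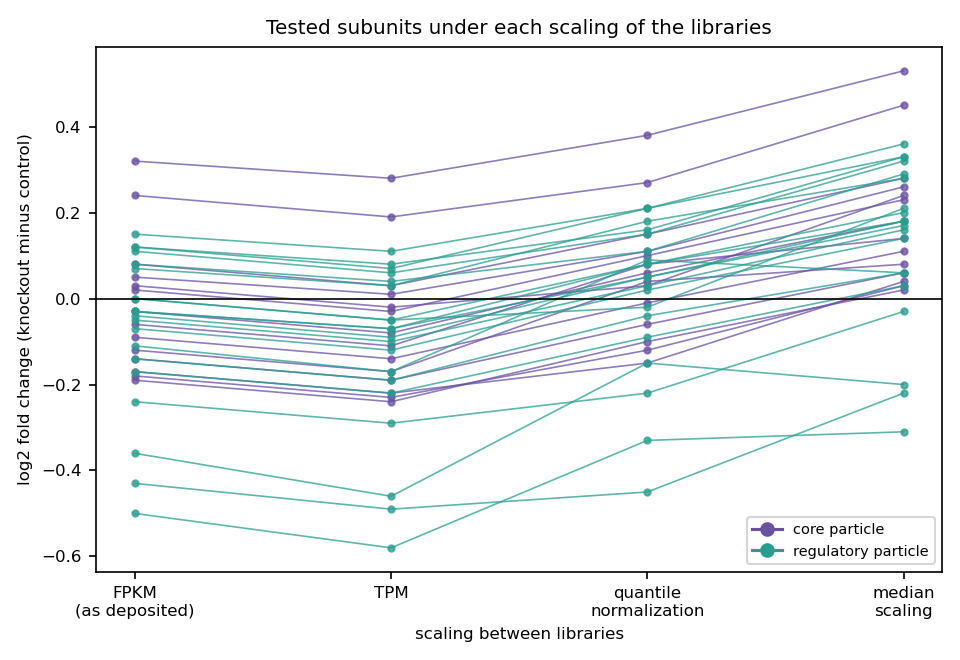
Log2 fold change of the 34 tested subunits (1 line per gene; purple, core particle; green, regulatory particle) with FPKM as deposited, in TPM, after quantile normalization and after scaling each library to the same median. The cloud moves from a median near 0 (-0.05 core, -0.03 regulatory) to above it (0.16 and 0.17), while Psmb5 stays the highest line and Psmd8 and Psmd5 stay negative.

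Genes that work with the proteasome were taken from lists by role, with 34 genes found and tested. Of these 3 rose and 4 fell, beside the same 8.99% and 25.4% of all tested genes, and the median log2 fold change was -0.10. The immunoproteasome subunits, which replace the catalytic ones in immune cells and after interferon, were low and not called. At an unadjusted p under 0.05 (limma) there were 0 of 3, where 11.9% of all tested genes were higher and 35.7% lower. Psmb8 was 0.856 and 1.18 FPKM in controls and 1.07 and 0.735 in knockouts. Psmb9 was 0.591 and 0.734 against 0.382 and 0.388, and Psmb10 was 3.36 and 3.46 against 3.28 and 2.92. As a share of the constitutive partner in the same library, Psmb8 was 1.42% to 2.76% of Psmb5, Psmb9 was 0.497% to 1.04% of Psmb6, and Psmb10 was 9.25% to 10.4% of Psmb7.

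The remaining subunits of the regulatory particle moved in opposite directions. Adrm1, a ubiquitin receptor of the base, rose from 51.2 and 46.1 FPKM in controls to 64.4 and 65.1 in knockouts (log2 fold change 0.41, standard error 0.09, adjusted p = 0.0166, limma). Sem1, the smallest lid subunit, fell from 19.3 and 16.9 to 13.6 and 12.7 (-0.43, standard error 0.10, adjusted p = 0.0243). Both pairs of groups were fully apart, but Sem1 was no longer called with median scaling (adjusted p = 0.163) or quantile normalization (0.104). Without the first or second control library the adjusted p was 0.0643 and 0.117 for Adrm1 and 0.168 and 0.0823 for Sem1, and without the second knockout library it was 0.0693 for Sem1.

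Other caps can take the place of the regulatory particle. Psme2, which with Psme1 forms the interferon-inducible activator, fell from 33.1 and 38.3 FPKM to 23.5 and 22.9, with both knockouts far below both controls (log2 fold change -0.60, standard error 0.10, adjusted p = 0.00765, limma). Psme1 was 19.3 and 28.2 against 20.1 and 16.7, with controls further apart than the group means (-0.33, adjusted p = 0.205). Of the 6 leukocyte markers, 2 fell in the same libraries, where 25.4% of all tested genes were called lower. Cd74 went from 13.1 and 16.4 FPKM to 4.61 and 4.39 and Ptprc from 3.57 and 3.31 to 1.87 and 1.71. Cd3e and Cd3g were not called (adjusted p = 0.370 and 0.166, limma), Lyz2 was 0.988 and 5.82 against 3.40 and 2.86, and Cd207 was under the filter in every library. The part of these cells in the fall of Psme2 was not tested. Without the second control library Psme2 was no longer called (adjusted p = 0.0729). The activators Psme3 and Psme4 had log2 fold changes of 0.09 and 0.02, and Psme3 was called higher with median scaling (0.30, adjusted p = 0.0396). Psmf1, an inhibitor of the core particle, rose from 7.65 and 8.39 to 11.5 and 10.9 FPKM (0.44, standard error 0.10, adjusted p = 0.0211), and its adjusted p was 0.155 and 0.0999 without the first and second control and 0.0531 without the first knockout.

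The 5 chaperones that assemble the core particle were each below both controls in both knockouts, as were 55.3% of all tested genes, and 1 of the 5 was called. Psmg4 fell from 5.63 and 6.07 FPKM to 4.34 and 3.41 (log2 fold change -0.50, standard error 0.13, adjusted p = 0.0343, limma). Its call was lost with median scaling (adjusted p = 0.120), with quantile normalization (0.142), without either control (0.149 and 0.200) and without the second knockout (0.0915). Other settings added calls: in TPM Psmg2 (adjusted p = 0.0388) and Pomp (0.0329) were also called lower, and Psmg3 was (0.0327) without the first knockout. The partner of Psmg4, Psmg3, was 7.79 and 8.13 against 6.73 and 5.41 (-0.35, adjusted p = 0.0776). Psmg2 was 6.87 and 8.35 against 5.69 and 5.66 (-0.36, adjusted p = 0.0641), and Psmg1 was 7.83 and 7.49 against 7.08 and 6.29 (-0.17, adjusted p = 0.243). Pomp, the proteasome maturation factor, was 29.2 and 30.9 against 25.4 and 24.1 (-0.27, adjusted p = 0.0550). At an unadjusted p under 0.05, 4 of the 5 were lower, against 35.7% of all tested genes, and the median of the list was -0.35, or -0.16 with median scaling.

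Of the genes upstream of the proteasome 1 was called, the shuttle factor Ubqln2, which was lower, as were 25.4% of all tested genes. Of the 2 ubiquitin genes reported, Rps27a and Ubb, 0 were called by limma. At an unadjusted p under 0.05 there were also 0, where 11.9% of all tested genes were higher and 35.7% lower. Rps27a was 368 and 403 FPKM in controls against 342 and 343, and Ubb was 294 and 311 against 265 and 267. Both knockouts were below both controls for each, and both genes were called lower with quantile normalization (adjusted p = 0.0276 and 0.0198) and had log2 fold changes of 0.05 and 0.03 with median scaling. The ubiquitin-activating enzyme Uba1 (-0.06), the segregase Vcp that extracts substrates (0.07), the scaffold Ecpas (0.01), the deubiquitinases Usp14 (-0.05) and Uchl5 (-0.06) and the ligase Ube3c (-0.01) did not pass the test. Vcp was called higher with median scaling (0.28, adjusted p = 0.0435). Uba6, another activating enzyme, was 4.92 and 4.65 FPKM against 5.48 and 5.52, with both knockouts above both controls (0.17, adjusted p = 0.250), and was called higher with quantile normalization (0.37, adjusted p = 0.0489). Shuttle factors carry ubiquitylated proteins to the proteasome. Of the 5 reported, 4 had both knockouts below both controls, against 55.3% of all tested genes, and 1 fell, against 25.4%. It was Ubqln2, from 30.9 and 28.6 FPKM to 19.8 and 20.9 (-0.52, standard error 0.09, adjusted p = 0.00811), with adjusted p values of 0.0538 under median scaling and 0.0856 and 0.0596 without either control. Its relative Ubqln1 was 103 and 105 against 91.9 and 97.7 (-0.13, adjusted p = 0.232).

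Of the transcription factors, Nfe2l1, the main regulator of proteasome genes, was 55.2 and 54.6 FPKM in controls and 53.6 and 53.1 in knockouts (log2 fold change -0.04, 95% interval -0.23 to 0.15). Ddi2 and Ngly1, the protease and the glycanase that activate the Nfe2l1 protein, had log2 fold changes of -0.22 and -0.12 and were not called (adjusted p = 0.134 and 0.472, limma). Nfe2l2, the regulator of the antioxidant response that can also act on proteasome genes, rose from 16.2 and 19.0 to 30.7 and 39.3 FPKM (0.95, standard error 0.14, adjusted p = 0.00515). The knockouts were both far above the controls, and without the first control library the adjusted p was 0.0643. The tables measure transcripts, so the activity of either factor and of the proteasome was not measured.

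**Figure D4:**
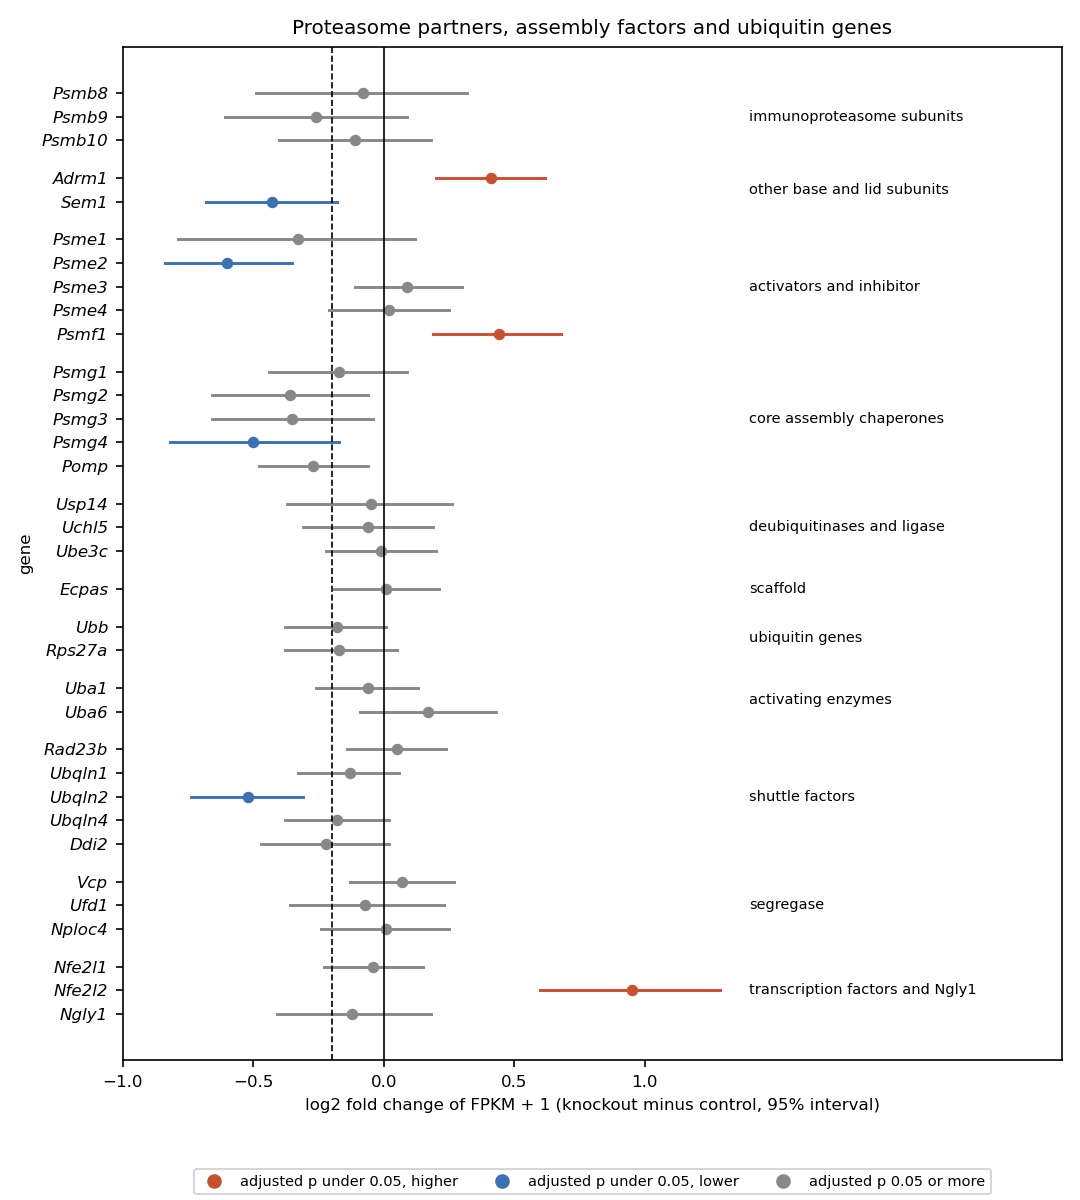
Log2 fold change of FPKM + 1 (Skiv2l fl/fl K14-Cre minus Skiv2l ctl) with its unadjusted 95% interval for 34 genes that work with the proteasome, by list, n = 2 pups per genotype. The dashed line is the median of all tested genes, -0.20; Adrm1, Psmf1 and Nfe2l2 lie above 0 and Sem1, Psme2, Psmg4 and Ubqln2 below it, with 0 outside their intervals, as also for Psmg2, Psmg3 and Pomp, which did not pass after adjustment.

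Reads of some subunits could be counted on near-identical copies or on genes that overlap them. For 5 of the 36 subunits, over 10% of the 75-base stretches in their GENCODE M21 transcripts were also found in other genes, and 19 shared none. It was 36.8% for Psmb5, mostly with the processed pseudogene Gm3375, 35.2% for Psma5, 24.3% for Psmd9, 14.3% for Psma3 and 10.3% for Psmb3. The FPKM of these genes is therefore uncertain. For Psmd9 the share was not with a copy but with Gm26745, a noncoding RNA gene whose exons overlap it on the other strand. Gm26745 was listed at 0 FPKM in every library. Gm3375 was low in all libraries, at 1.75 and 1.52 FPKM in controls and 1.96 and 1.72 in knockouts. Psmd5 and Psmd8 shared no stretch with another gene. Exons of 9 subunits overlap those of another gene, among them Psmb7 with Nek6 and Psmd13 with Sirt3 on the other strand. Psmb5 overlaps the microRNA gene Mir686, and Psmd1 overlaps Gm21972, on the same strand. The strand setting of the counting is not given in the sources used here.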

How the data were processed

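RNA from the epidermis of 4 pups, 2 per genotype, was analysed, and groups follow the genotype in the sample labels. Reads were processed by the authors in an institutional workflow, whose aligner and strand setting are not given in the sources used here. In the deposited tables FPKM corrects for the length of a transcript and the size of the library. Deposited TPM values have a fixed sum per library, and deposited coverage is the mean read depth of a gene. All 36 subunits have GENCODE M21 (GRCm38) coordinates.

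FPKM was summed per gene identifier. Of 21921 protein-coding genes, the 13609 that exceeded an FPKM of 0.5 in any sample, the filter of the paper, were tested by limma 3.58.1 (R 4.3.3), using lmFit and a trended eBayes on log2(FPKM + 1). Tests were two-sided, p-values were adjusted by Benjamini-Hochberg across these genes, and calls were made at an adjusted p under 0.05. The pseudocount of 1 makes fold changes of low genes too small. No counts were used, so precision rests on 2 pups per genotype. The trended eBayes draws the variance of each gene toward a trend fitted over all tested genes. The p-values thus rest on the spread between these pups in the gene and in the other tested genes. The script was tested on simulated data. Members and lists were chosen with earlier results of these data known, and the structural groups of the subunits and the pairs set side by side with the values in view. Every subunit is reported, with values in each library for the catalytic, the tissue-restricted, the called and the highest and lowest subunits and for others named beside them. Paaf1, on the list of assembly factors, was not analysed here, and some genes of the lists are not reported here. The alternatives were another pseudocount, other filters, TPM, a common median of the tested genes, quantile normalization, a block for the replicate number, an untrended eBayes and leaving out each library. Promoter windows and shared stretches were read from RefSeq and GENCODE M21.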

Additional observations from a re-analysis of the deposited data

How the results depend on the processing

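Psmb5, Psmd8 and Psmd5 kept their direction under every alternative, but their calls did not hold under all of them, as given in the report. Without the filter on low values, which adds genes listed near 0 to the test, 0 core subunits were called higher and 0 regulatory subunits lower, and the named genes called were 0 higher and 0 lower (all genes, 475 and 927), Skiv2l also losing its call. Without a trend in the variance 0 core subunits were called higher. With median scaling 2 core subunits and 4 regulatory subunits were called higher and 0 regulatory subunits lower, the named genes were 11 higher and 1 lower and all genes 1894 and 1623, and the medians were 0.16 (core) and 0.17 (regulatory). With quantile normalization 1 regulatory subunit and 1917 genes in all were called lower and both medians were 0.05. Leaving out each library in turn gave 0 to 0 core subunits called higher, 0 to 3 regulatory subunits lower, 0 to 3 named genes higher and 0 to 8 lower, and 497 to 1146 genes higher and 805 to 3135 lower in all, lowest without a control library. In these fits the lone library of a genotype is assumed to vary like the pair of the other. The cause of these changes was not tested. The replicate numbers of the labels did not pair the pups (correlation of the deviations between genotypes -0.077 over 13609 genes). With the replicate number as a block 1 core subunit was called higher and 2 regulatory subunits lower, as without it, and 1264 and 3393 genes were called in all. No call of a named gene changed.

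Log2 fold changes that turned sign were small, and only Rps27a and Ubb among them were called in any setting. With median scaling they were Psma2 (0.08), Psma3 (0.18), Psma4 (0.06), Psma5 (0.14), Psma6 (0.03), Psmb1 (0.02), Psmb4 (0.04), Psmb7 (0.11), Psmc1 (0.17), Psmd1 (0.14), Psmd12 (0.18), Psmd13 (0.03), Psmd14 (0.06), Psmd3 (0.21), Psmd4 (0.16), Psmd6 (0.18), Psmd7 (0.20), Psmd9 (0.06), Psmb8 (0.02), Psmb10 (0.05), Psmg1 (0.01), Usp14 (0.15), Uchl5 (0.13), Ube3c (0.19), Ubb (0.03), Rps27a (0.05), Uba1 (0.15), Ubqln1 (0.08), Ubqln4 (0.02), Ufd1 (0.14), Nfe2l1 (0.17) and Ngly1 (0.08). With quantile normalization they were Psma2 (0.04), Psma3 (0.06), Psma5 (0.08), Psmc1 (0.05), Psmd1 (0.02), Psmd12 (0.08), Psmd4 (0.03), Psmd6 (0.05), Psmd7 (0.08), Psmd9 (0.09), Psmb8 (0.10), Psmb10 (0.12), Psmg1 (0.02), Usp14 (0.09), Uchl5 (0.14), Ube3c (0.13), Ufd1 (0.05) and Ngly1 (0.04), and in TPM Psma7 (-0.03), Psmb6 (-0.02), Psme4 (-0.02), Ecpas (-0.03), Rad23b (-0.00) and Nploc4 (-0.04). Leaving out libraries gave the ranges Psma3 (-0.09 to 0.02), Psma5 (-0.15 to 0.03), Psma7 (-0.08 to 0.12), Psmb2 (-0.03 to 0.13), Psmb6 (-0.10 to 0.15), Psmc1 (-0.11 to 0.03), Psmc6 (-0.02 to 0.17), Psmd12 (-0.06 to 0.01), Psmd3 (-0.06 to 0.05), Psmd4 (-0.13 to 0.03), Psmd6 (-0.06 to 0.00), Psmd7 (-0.05 to 0.05), Psmd9 (-0.29 to 0.06), Psmb8 (-0.21 to 0.04), Psme4 (-0.05 to 0.09), Usp14 (-0.21 to 0.10), Ube3c (-0.03 to 0.01), Ecpas (-0.02 to 0.04), Ufd1 (-0.18 to 0.05) and Nploc4 (-0.10 to 0.11). With 2 pups per genotype and no counts, differences under about the median interval of 0.22 cannot be resolved.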
